A study of Mus musculus with 16 samples.

Results

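At postnatal day 7 (P7), 2 libraries of mouse retina labelled Uxt CKO (conditional knockout) were compared with 2 control libraries across all genes, 4 of the 16 libraries of the series. The 4 were chosen by their labels for age and genotype. The control animals carry the label control and the strain C57BL/6, and no further allele is named for them. The libraries labelled CKO come from C57BL/6 mice in which a Cre line was crossed with Uxt flox/flox. The promoter of that line drives Cre in retinal progenitors and later in bipolar cells, so the recombination is meant for the neural retina and not for the tissues around it. The labels give neither sex nor litter, and they do not say whether a library holds 1 animal or several. They do not state that libraries of a group come from separate animals either. A p-value here reflects how far the libraries of a group differ, estimated over all 16 libraries and not those of P7 alone. That spread may be technical.

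UXT is a small protein of the prefoldin type that works with URI1 and the R2TP chaperones in assembling large complexes. In mouse retina the first postnatal week is the time when the last rods and bipolar cells are born and when young rods, already committed by CRX, NRL and NR2E3, switch on the genes of light detection and of their synapse. Neurogenic precursors, marked by proneural factors and by Notch ligands, are cells leaving division on the way to these late neurons.

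The deletion is designed to remove exon 3 of Uxt. Counts were deposited per gene, so a transcript that lacks this exon is still counted as Uxt, and the gene's count is a weak check of the label. Uxt (ENSMUSG00000001134) stood at 5.76 and 6.41 CPM (counts scaled to a common library size) in the controls against 7.66 and 6.62 CPM in the libraries labelled CKO. Both labelled libraries were thus above both controls. The log2 fold change (positive where the label CKO is higher) was 0.23 ± 0.18 (SE, n = 2 libraries per group), with an adjusted p of 0.548 in edgeR's quasi-likelihood test with Benjamini-Hochberg adjustment over all genes tested. Leaving out 1 P7 library at a time gave values from 0.11 to 0.33. Because Uxt was not lower, every rise or fall below is one between libraries by label. The other 14 genes of the prefoldin and R2TP list had log2 fold changes between -0.07 and 0.11, and none of the 15 was called in edgeR (0 at an unadjusted p under 0.05) or DESeq2. Uri1, the scaffold that binds UXT, had 64.3 and 62.3 CPM in the controls against 60.6 and 62.9 CPM, with overlapping groups.

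The P7 libraries held between 17910122 and 19161594 counts and between 27459 and 27596 detected genes, and a count of 0 allows up to 3 counts, or 0.147 to 0.158 CPM. Replicates at P7 were close, the chi-square over its degrees of freedom being 1.70 for the controls and 1.59 for the label CKO. The P30 libraries, which enter the same fit, differed more within groups, at 4.38 for the controls and 31.7 for the label CKO. The groups differ in sex-linked genes. Xist, which marks the inactive X chromosome of females, stood at 1.82 and 2.45 CPM in the controls against 1374 and 1367 CPM, and the Y-linked Eif2s3y stood at 88.3 and 97.7 CPM against 0 in both libraries labelled CKO, at least 606-fold lower by 3 counts per library. Label and sex therefore cannot be told apart at P7, in the level of Uxt given above or in any result below. Retinal markers were high in all 4 libraries, and so were genes of tissues outside the retina, with crystallins of the lens taking 6.03% and 6.19% of all counts in the controls and 8.0% and 8.08% in those labelled CKO. In bulk tissue, fewer cells of a type and less RNA per cell cannot be told apart.

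Genes of photoreceptor and bipolar cell function were lower under the label CKO, while several genes of neurogenic precursors were higher. The rod factors Crx, Nrl and Nr2e3 did not pass the test with all 16 libraries. Of 21115 genes tested, 1525 (7.22%) passed an adjusted p of 0.05. These were 585 higher (2.77%) and 940 lower (4.45%), and 276 (1.31%) of the 1525 changed at least 2-fold. With any 1 of the 4 P7 libraries left out, 716 to 743 genes passed. Scaled on the amacrine, horizontal and ganglion cell genes in place of TMM, 704 passed, and 62.1% of the calls were then higher in place of 38.4%. With library size as the only scaling that share was 28%. The median log2 fold change of all genes tested was 0.01 under TMM and 0.16 under the scaling on inner retinal neuron genes. Those genes were themselves lower in sum under TMM, so this scaling moves log2 fold changes upward. Amacrine cell genes summed to 589 and 574 CPM in the controls against 522 and 516 CPM. Ganglion cell genes summed to 620 and 630 CPM against 558 and 543 CPM, and the sums of horizontal cell genes overlapped.

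The direction of the P7 calls went with what the same genes did in the controls between P1 and P14, a comparison that uses none of the P7 libraries. That comparison carries a difference in sex too, since the mean of Xist was 1.12 CPM in controls of P1 against 1202 CPM at P14, so age and sex cannot be told apart in it. Of the 940 genes lower at P7, 703 (74.8%) rose in the controls from P1 to P14 and 87 (9.26%) fell, against 31.5% rising and 28.9% falling among all 21115 genes. Among the 585 genes higher at P7 the shares turned, with 154 (26.3%) rising and 326 (55.7%) falling. The median change of the controls from P1 to P14 was 1.22 (log2) for the genes lower at P7 and -0.34 for those higher at P7. For each gene that changed at least 2-fold in the controls, the P7 level was also placed between the P1 controls (0%) and the P14 controls (100%). Over 20 rod phototransduction genes the median place was 73.0% and 72.9% in the P7 controls against 61.6% and 57.6% in the libraries labelled CKO. Over 15 bipolar identity genes it was 71.4% and 65.9% against 46.8% and 52.8%. Over 11 neurogenic precursor genes, which fall in the controls, it was 65.5% and 62.8% against 51.6% and 55.0%. Over 11 progenitor genes, which also fall, it was 79.3% and 80.3% against 70.5% and 66.4%. Other lists stood further along under the label CKO. For a gene that falls in the controls, further along means a lower level. Over 10 ganglion cell genes, of which 2 rise in the controls, the median place was 71.9% and 67.8% against 81.2% and 89.8%. Over 10 lens genes, which all rise, it was 43.3% and 44.7% against 70.3% and 71.6%. Over 9 pigment epithelium genes it was 31.4% and 41.8% against 56.3% and 55.8%. For 9 photoreceptor transcription factors the medians were 91.5% and 91.9% in the controls against 91.7% and 90.8%, with both libraries labelled CKO below both controls for 3 of the genes and above them for 4.

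**Figure D1:**
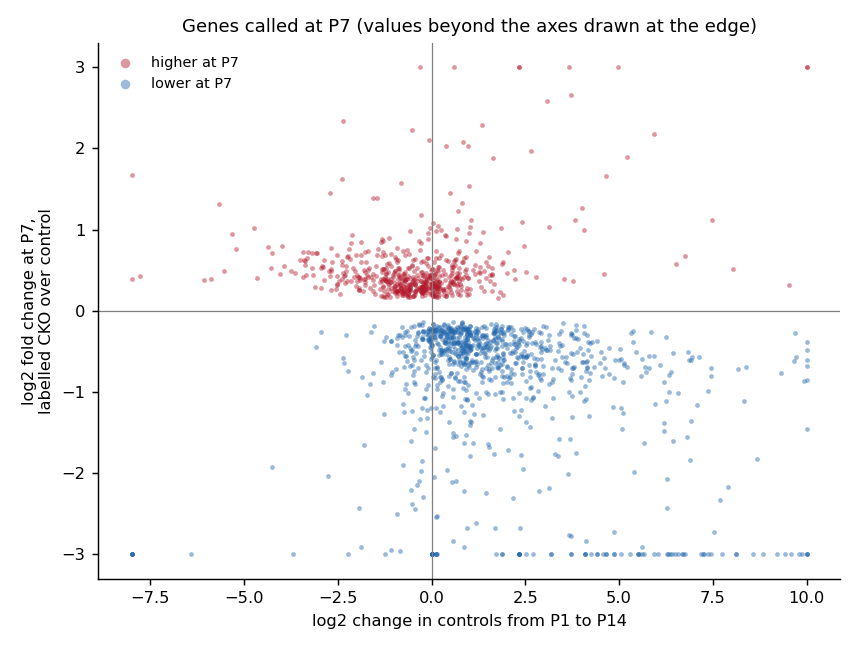
Each point is 1 of the 1525 genes called at P7, with the log2 change in controls from P1 to P14 on the x axis and the log2 fold change at P7 (libraries labelled CKO over controls) on the y axis, and values beyond the axes drawn at the edge. Most genes lower at P7 (703 of 940) lie to the right, among genes that rise in the controls, and most genes higher at P7 (326 of 585) lie to the left.

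**Figure D2:**
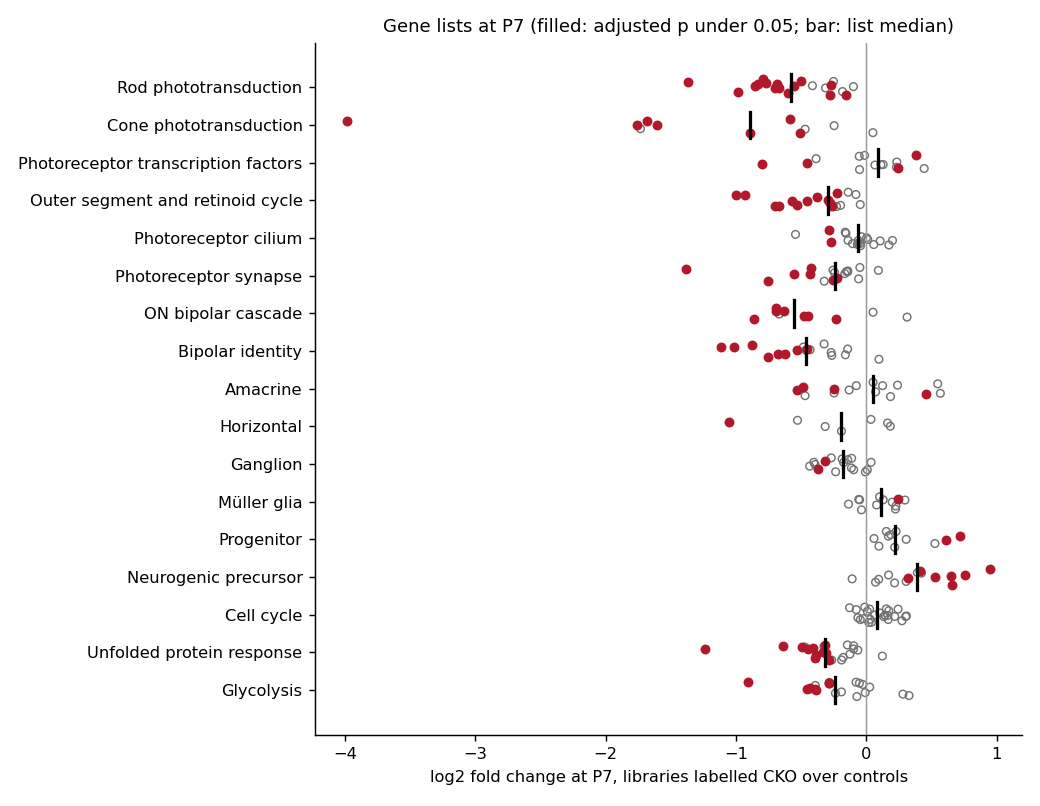
Each point is 1 gene, with its log2 fold change at P7 on the x axis and its list on the y axis, filled where the adjusted p was under 0.05 and with a bar at the list's median. The rod, cone, bipolar, unfolded protein response and glycolysis lists lie mostly to the left of 0, the neurogenic precursors to the right, and the photoreceptor transcription factors on both sides.

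Rod phototransduction genes, which turn the capture of a photon into a change of membrane current, fell in 15 of 20 cases and rose in none, with a median of -0.58 against 0.01 for all genes. All 20 log2 fold changes were negative. Sag, the arrestin that shuts off the activated rod pigment, stood at 609.9 and 596.5 CPM in the controls against 370.7 and 369.2 CPM in the libraries labelled CKO (-0.71 ± 0.06, adjusted p = 2.83e-07, edgeR). Grk1, the kinase that prepares the pigment for arrestin, stood at 144 and 145 CPM against 86.4 and 80.5 CPM (-0.79 ± 0.05, adjusted p = 9.04e-09). The groups were far apart in both genes and the libraries of a group lay close together. The catalytic phosphodiesterase subunits Pde6a and Pde6b fell by 0.77 (SE 0.10) and 0.56 (SE 0.06). The inhibitory subunit Pde6g fell by 0.50 (SE 0.06), and the largest adjusted p among them was 0.00015. Rcvrn, a calcium sensor acting on the kinase, had 75.2 and 73.0 CPM in the controls against 38.6 and 36.1 CPM in the libraries labelled CKO. Guca1a, which senses calcium for the guanylate cyclase, fell by 1.37 (SE 0.21), and the cyclase Gucy2e itself by 0.83 (SE 0.06). The channel subunit Cnga1 fell by 0.69 (SE 0.09), whereas its partner Cngb1 had 221 CPM in both controls against 199 and 189.8 CPM and did not pass (adjusted p = 0.361). With 1 P7 library left out, 12 or 13 rod genes fell, and with the scaling on inner retinal neuron genes 8 did, at a median of -0.43.

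The best known transcription factors of rods did not pass the test with all 16 libraries. Crx, the homeodomain factor of all photoreceptors, had 579 and 582 CPM in the controls against 563 and 556 CPM in the libraries labelled CKO (-0.05 ± 0.04, adjusted p = 0.542). Nrl, the factor that commits a photoreceptor to the rod fate, had 552 and 557 CPM against 555 and 543 CPM, with overlapping groups (-0.01 ± 0.06, adjusted p = 0.94). Nr2e3, which represses cone genes in rods, had 655 and 652 CPM against 686 and 681 CPM (0.07 ± 0.05, adjusted p = 0.508). Both libraries labelled CKO were slightly below the controls for Crx and slightly above them for Nr2e3. Of the 14 genes on this list 2 rose and 2 fell, with a median of 0.09, but 7 rose and 2 fell in a fit without the P30 libraries or of the P7 libraries alone. Over all genes the fit without P30 called 2053 higher and 2313 lower of 20350, and the fit of P7 alone 1971 and 2198 of 19015. Esrrb, a nuclear receptor needed for rod survival, fell from 9.13 and 9.35 CPM to 5.03 and 5.57 CPM (-0.80 ± 0.12, adjusted p = 0.000148). Thrb, the thyroid hormone receptor that directs the type of cone opsin, fell from 38.9 and 34.9 CPM to 26.8 CPM in both libraries labelled CKO (-0.46 ± 0.07, adjusted p = 0.000224). Prdm1, which favours rods over bipolar cells, rose from 98.5 and 95.7 CPM to 122 and 131 CPM (0.38 ± 0.08, adjusted p = 0.00588). Prdm1 did not pass without control replicate 2 (adjusted p = 0.0796) or CKO replicate 2 (0.0952), and the call of Rorb, the other gene that rose, was lost without any of the 4 libraries (0.194 to 0.326).

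Outer segment and retinoid cycle genes fell in 12 of 17 cases and rose in none, with a median of -0.30. Rdh8 and Rdh12, dehydrogenases that reduce the retinal released from bleached pigment, fell by 1.00 (SE 0.14) and 0.67 (SE 0.06), at adjusted p of 8.8e-05 and 8.06e-07. Aipl1, a chaperone of phosphodiesterase, stood at 101 and 108 CPM in the controls against 54.5 and 55.3 CPM. The structural disc proteins moved less. Prph2, the peripherin of the disc rim, fell from 498 and 501 CPM to 383 and 385 CPM (-0.38 ± 0.05, adjusted p = 2.97e-05), and Rp1, a microtubule protein of the axoneme, fell by 0.46 (SE 0.06). Rbp3, a retinoid carrier made early by photoreceptors, fell from 961 and 938 CPM to 796 and 785 CPM (-0.26 ± 0.05, adjusted p = 0.00134). In the cilium list only Lca5 and Rpgr of 19 genes passed, both lower, and both lost the call when a P7 library was left out (Lca5 without control replicate 1, adjusted p = 0.255, and without CKO replicate 1 or 2, 0.198 and 0.0811, and Rpgr without any of the 4, 0.0738 to 0.301). The cilium median of -0.06 became 0.09 with the scaling on inner retinal neuron genes, under which 3 outer segment genes passed, all lower.

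The promoters were searched for a core motif of photoreceptor genes. The letters TAATCC, or GGATTA on the other strand, are the core bound by CRX and OTX2. Promoter sequences from RefSeq (GRCm38.p6) were matched for 22 of the 34 rod, cone and outer segment genes called lower, and 8 of them (36.4%) hold these letters within 250 bases before the start. So do 3 of 11 (27.3%) matched genes of the same lists that were not called, 3 of 13 (23.1%) bipolar genes called lower, 1725 (6.38%) of all 27025 promoters in the table and none of 12 promoters of neurogenic precursor genes. Among the protein-coding genes tested here, 688 of 12781 matched promoters (5.38%) hold these letters. Only the first listed start of each gene was searched. The lists were drawn up for their photoreceptor function, and a match of letters is a description and not a site. The last 120 bases before the start are shown for 5 of the genes to let the position of the core be seen, 5′ to 3′ on the strand of the gene, with the core in capitals. They lie at chr1:87803560-87803679 (plus strand) for Sag, chr11:72037510-72037629 (minus strand) for Aipl1, chr11:69237023-69237142 (minus strand) for Gucy2e, chr14:33953883-33954002 (plus strand) for Rbp3 and chr3:108092946-108093065 (plus strand) for Gnat2.
Sag: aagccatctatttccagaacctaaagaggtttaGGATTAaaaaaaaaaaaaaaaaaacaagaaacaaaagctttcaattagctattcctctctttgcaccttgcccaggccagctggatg
Aipl1: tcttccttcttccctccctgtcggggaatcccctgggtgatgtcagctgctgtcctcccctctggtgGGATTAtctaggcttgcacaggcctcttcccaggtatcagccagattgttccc
Gucy2e: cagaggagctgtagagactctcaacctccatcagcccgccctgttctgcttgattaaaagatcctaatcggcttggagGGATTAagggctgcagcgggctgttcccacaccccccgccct
Rbp3: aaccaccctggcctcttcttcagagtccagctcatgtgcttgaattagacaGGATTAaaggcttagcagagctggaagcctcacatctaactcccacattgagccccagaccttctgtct
Gnat2: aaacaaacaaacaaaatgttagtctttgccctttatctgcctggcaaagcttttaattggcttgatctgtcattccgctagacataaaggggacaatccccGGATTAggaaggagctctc

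Cone phototransduction showed the largest median of the retinal lists, -0.90, with 7 of 11 genes lower and none higher. Arr3 (chromosome X), the cone arrestin, stood at 24.9 and 25.1 CPM in the controls against 7.37 and 7.41 CPM in the libraries labelled CKO (-1.76 ± 0.15, adjusted p = 1.72e-06). Pde6h, the inhibitory subunit of the cone phosphodiesterase, had 21.5 and 23.0 CPM against 6.97 and 6.88 CPM, and Pde6c, the catalytic subunit, had 21.6 and 22.7 CPM against 7.76 and 6.72 CPM. In all of these genes each library labelled CKO lay far below either control. Gnat2, the cone transducin, fell by 0.90 (SE 0.11, adjusted p = 2.94e-05), and Gngt2, its gamma partner, by 0.59 (SE 0.10, adjusted p = 0.000633). Opn1mw, the middle-wavelength opsin on chromosome X, rested on 20 counts in both controls together against 1, which is 19.7 times as many per library size (95% limits of the counting error 3.15 and 817), and its call was lost without CKO replicate 1 (adjusted p = 0.0675). Opn1sw, the short-wavelength opsin, had 83.0 and 78.5 CPM in the controls against 24.2 and 24.3 CPM. The groups were as far apart as for Arr3, but with all 16 libraries the gene did not pass (-1.73 ± 0.56, adjusted p = 0.126), and it passed in a fit without the 4 P30 libraries (adjusted p = 9.78e-70) or of the 4 P7 libraries alone (1.07e-29). The channel subunit Cngb3 had overlapping groups (0.05 ± 0.12, adjusted p = 0.882). The cone list also fell in 5 cases, at a median of -0.75, with the scaling on inner retinal neuron genes.

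**Figure D3:**
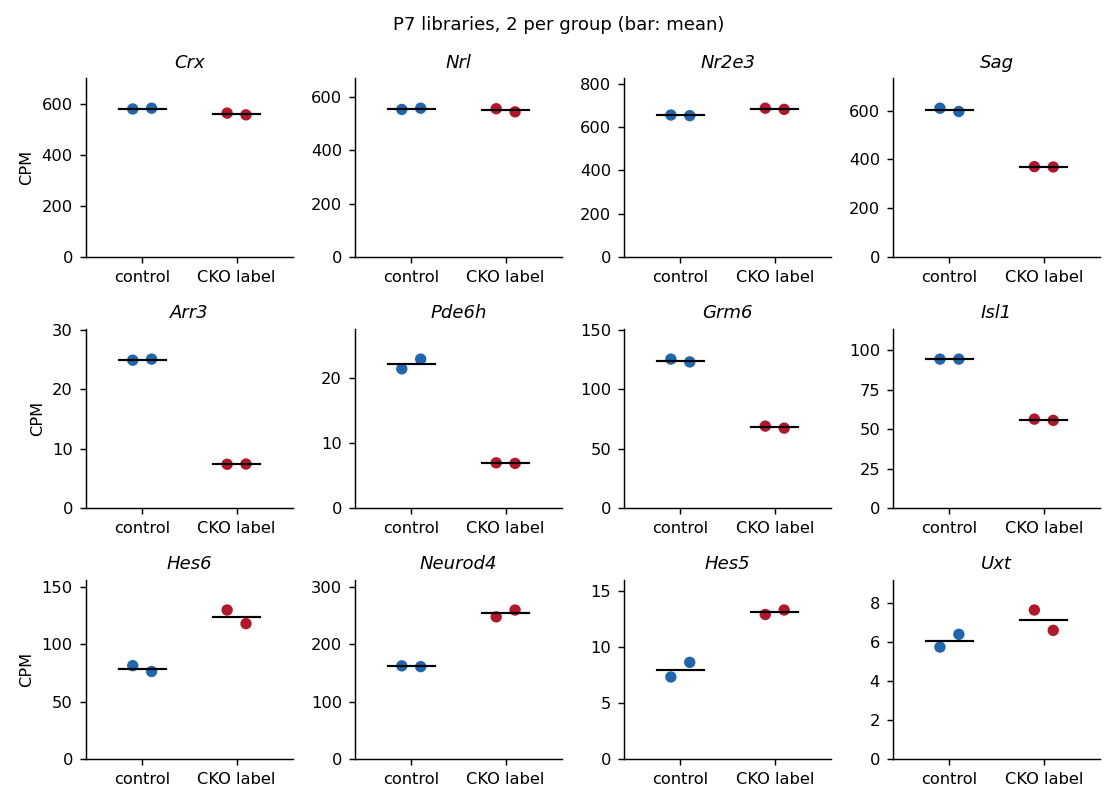
Points are the 4 P7 libraries, with CPM on the y axis (from 0) and the group on the x axis, and bars are group means. The libraries of a group lie close together, and Crx, Nrl and Nr2e3 differ little between groups. Sag, Arr3, Pde6h, Grm6 and Isl1 are lower in the libraries labelled CKO, and Hes6, Neurod4 and Hes5 are higher.

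Among photoreceptor synapse genes 7 of 17 fell and none rose, with a median of -0.24. Cabp4, a calcium-binding regulator of the presynaptic channel, fell from 9.28 and 9.55 CPM to 3.88 and 3.31 CPM (-1.39 ± 0.15, adjusted p = 4.66e-06). Slc17a7, the vesicular glutamate transporter of photoreceptor and bipolar terminals, fell from 194 and 186 CPM to 114 and 112 CPM (-0.75 ± 0.10, adjusted p = 0.000317). Dlg4, the scaffold PSD-95 found in photoreceptor terminals, fell by 0.43 (SE 0.05) and the channel subunit Cacna2d4 by 0.42 (SE 0.06), the larger adjusted p being 0.000192. Only 2 genes fell with the scaling on inner retinal neuron genes.

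ON bipolar cells receive the rod signal through the receptor mGluR6 and a G protein cascade that closes the channel TRPM1. Of 10 genes of this cascade 7 fell and none rose, with a median of -0.56. Grm6, the receptor, stood at 125 and 123 CPM in the controls against 69.0 and 67.3 CPM in the libraries labelled CKO (-0.87 ± 0.06, adjusted p = 2.07e-08). The regulators that speed the cascade, Rgs11 and Rgs7 with their partner Gnb5, fell by 0.69 (SE 0.09), 0.63 (SE 0.14) and 0.45 (SE 0.06), at adjusted p of 4.66e-05, 0.00754 and 4.07e-05. In the list of bipolar identity 8 of 17 fell and none rose, with a median of -0.47. Bhlhe23, a factor of rod bipolar cells, fell from 14.7 and 15.7 CPM to 7.66 and 6.35 CPM (-1.12 ± 0.15, adjusted p = 6.63e-05). Vsx1, a factor of cone bipolar cells, fell from 38.0 and 32.8 CPM to 17.6 and 17.4 CPM (-1.02 ± 0.12, adjusted p = 2.27e-05). Isl1, a factor of ON bipolar cells that amacrine and ganglion cells also use, fell from 94.3 CPM in both controls to 56.3 and 55.5 CPM (-0.75 ± 0.06, adjusted p = 5.32e-08). With 1 P7 library left out, 4 or 5 genes of the cascade fell (the call of Rgs7 was among those lost, in 2 of the 4 cases) and 6 or 7 of bipolar identity, and with the scaling on inner retinal neuron genes 2 and 3 did.

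Calls with all 16 libraries among genes of the earlier-born neurons and of glia are given below, against 2.77% higher and 4.45% lower over all genes. More were called without the libraries of P30, where 7 of 16 ganglion cell genes fell and 6 of 12 Müller glia genes rose and 1 fell. Over all genes that fit called 2053 higher and 2313 lower of 20350. Amacrine cell genes fell in 3 of 15 cases and rose in 1 (Ebf3, lost without any of the 4 P7 libraries, adjusted p from 0.153 to 0.293), at a median of 0.05 that was 0.20 with the scaling on inner retinal neuron genes and -0.08 without CKO replicate 2. Tfap2b, an amacrine cell factor, fell from 228 and 221 CPM to 163 and 159 CPM (-0.48 ± 0.05, adjusted p = 7.43e-06), whereas Gad1, which makes the transmitter GABA, had 49.8 and 51.1 CPM against 48.0 and 47.6 CPM (adjusted p = 0.807). Of 7 horizontal cell genes only Calb1, a calcium buffer also found in other neurons, passed, from 7.62 and 7.39 CPM to 3.53 and 3.68 CPM (-1.06 ± 0.16, adjusted p = 0.000176). Ganglion cell genes fell in 2 of 16 cases, Stmn2 and Sncg, and with 1 P7 library left out in 1 case at most. Müller glia genes rose in 1 of 12 cases, Vim, an intermediate filament gene that many other cells express, and Glul, the glutamine synthetase of these cells, had 341 and 349 CPM against 367 and 362 CPM (0.08 ± 0.05, adjusted p = 0.452). The rise of Vim (adjusted p = 0.00322) was lost without control replicate 1 (0.0752) or CKO replicate 1 (0.06).

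Neurogenic precursor genes rose in 7 of 15 cases and fell in none, with a median of 0.39. Neurod4, a basic helix-loop-helix factor, stood at 162 and 161 CPM in the controls against 248 and 259.6 CPM (0.65 ± 0.06, adjusted p = 1.84e-07). Hes6, which counters the Notch effector HES1, rose by 0.65 (SE 0.07), Dll3, a Notch ligand, by 0.75 (SE 0.13), and Sox11 by 0.53 (SE 0.07), the largest adjusted p being 0.001. Dll1 and Mfng also rose but lost their call without any of the 4 P7 libraries (Dll1, adjusted p from 0.0616 to 0.212) or without each control or CKO replicate 2 (Mfng, 0.0505 to 0.0675). Neurog2 and Atoh7, factors of earlier neurogenesis, had overlapping groups. In the progenitor list all 11 log2 fold changes were positive, and Notch1 and Hes5 passed. Notch1 rose from 122 and 112 CPM to 182 and 176 CPM (0.61 ± 0.05, adjusted p = 7.95e-08), and Hes5, a target of Notch signalling, from 7.31 and 8.62 CPM to 12.9 and 13.3 CPM (0.71 ± 0.13, adjusted p = 0.001). None of 24 cell cycle genes passed in edgeR (1 at an unadjusted p under 0.05) or DESeq2, with a median of 0.08, but 7 rose in a fit without the P30 libraries and 5 in a fit of the P7 libraries alone. Over all genes these fits called 2053 of 20350 and 1971 of 19015 higher. Under the scaling on inner retinal neuron genes 6 precursor genes rose.

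The comparison with newborn retina shows a change of sign in this group. At P1 13 of the 15 precursor genes fell in the libraries labelled CKO (6.57% of all genes fell there), and the P7 effect was above the P1 effect for 12 of the 15 by the interaction test, against 3.57% of all genes. Over all genes that test passed in 7.17%. For Neurod4 the log2 fold change was -0.92 at P1 and 0.65 at P7, a difference of 1.57 ± 0.08 (adjusted p = 6.27e-10, edgeR). Crx, Nrl and Nr2e3 fell at P1 by 0.79, 0.96 and 0.99, so that the difference of P7 from P1 was 0.74 ± 0.06, 0.95 ± 0.09 and 1.06 ± 0.07, each with an adjusted p of at most 2.41e-06. The shift reached fewer genes of photoreceptor function. Among rod phototransduction genes 3 of 20 were above and 1 below, against 3.57% above and 3.6% below over all genes. Among outer segment and retinoid cycle genes 6 of 17 were above and 1 below, and among cone phototransduction genes 1 of 11 above and 2 below. For the ON bipolar cascade the P7 effect was below the P1 effect in 3 of 10 genes and above it in none, and for bipolar identity in 4 of 17 and above it in 1 (3.6% of all genes were below). Isl1 is among them, with values of 0.05 at P1 and -0.75 at P7, a difference of -0.80 ± 0.09 (adjusted p = 9.26e-06). At P14 20 of 20 rod genes and 9 of 10 genes of the ON bipolar cascade were lower (27.8% of all genes were). The P14 effect was below the P7 effect for 19 of the 20 rod genes, in a test that passed for 48.5% of all genes and in this direction for 24.7%. Crx, Nrl and Nr2e3 fell at P14 by 2.49, 2.62 and 2.86. Many other genes called at P7 changed direction by P14. Of the 940 genes lower at P7, 348 (37%) were lower at P14 and 472 (50.2%) were higher. Of the 585 genes higher at P7, 127 (21.7%) were higher at P14 and 269 (46%) were lower. Both groups of P14 are high in Xist, so the P14 contrast does not carry the difference in sex.

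**Figure D4:**
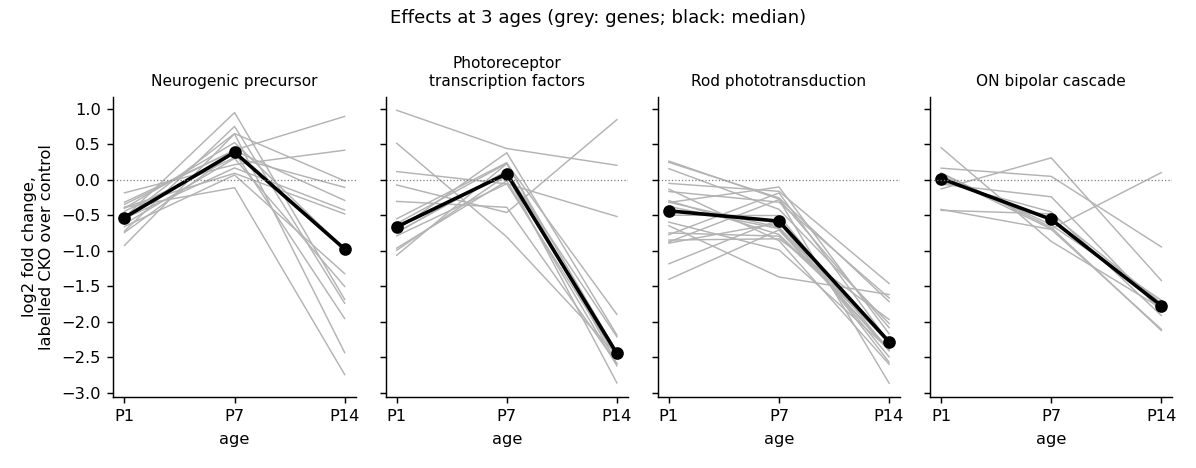
Grey lines are genes and black lines the list median, with the log2 fold change of the libraries labelled CKO over controls on the y axis and the age on the x axis. The precursor genes and transcription factors are below 0 at P1 (medians -0.53 and -0.66), above it at P7 (0.39 and 0.09) and below it at P14 (-0.98 and -2.45), whereas rod genes are below 0 at all 3 ages (-0.44, -0.58 and -2.28).

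Genes of the unfolded protein response, which raises the folding capacity of the endoplasmic reticulum, fell in 11 of 22 cases and rose in none, with a median of -0.32. This direction was not kept at the other ages. The median of the list was 0.08 at P1 and 0.40 at P14, against 0.02 for all genes at P14. The P14 effect was above the P7 effect for 20 of the 22, in a test that passed for 48.5% of all genes. Sdf2l1, a cofactor of the chaperone BiP, fell from 22.8 and 21.2 CPM to 10.2 and 8.35 CPM (-1.24 ± 0.13, adjusted p = 2.05e-06), and Hspa5, which encodes BiP, from 447 and 462 CPM to 332 and 333 CPM (-0.45 ± 0.08, adjusted p = 0.00246). Xbp1, a factor that drives this response and is high in secretory cells, fell from 117 and 124 CPM to 79.5 and 75.3 CPM. Markers of secretory glands moved the same way in the same libraries. Of 17 gland genes 13 fell and none rose, and in all 17 the groups did not overlap, as in 55% of all genes tested. The list includes Lipo1, Lipo4, Lipo5, Mup4, Mucl1 and Scgb2b33, which are among the 12 largest falls at P7. Its counts are thus in part fixed by the choice of genes and are no separate result. The summed level of the 17 gland genes was 2648 and 2765 CPM in the controls against 298 and 306 CPM. The part of gland tissue in the fall of the folding genes was not tested. With 1 P7 library left out, 5 to 9 genes of this response fell, and with the scaling on inner retinal neuron genes 1 did. Cytosolic heat shock genes rose in 1 of 11 cases, Hspb1, from 146 and 156 CPM to 234 and 240.4 CPM (0.66 ± 0.05, adjusted p = 7.38e-08).

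Glycolysis genes fell in 7 of 19 cases and rose in none, with a median of -0.24. The 19 cases come from 18 gene symbols, since Aldoa matched 2 identifiers. Pfkp, the platelet isoform of phosphofructokinase, fell from 302 and 303 CPM to 162 and 160.0 CPM (-0.91 ± 0.06, adjusted p = 7.9e-09). Hk1, the first enzyme of the pathway, fell from 177 and 186 CPM to 134 and 131 CPM (-0.46 ± 0.07, adjusted p = 0.000139), and Gpi1 fell by 0.43 (SE 0.05, adjusted p = 1.91e-05). With the scaling on inner retinal neuron genes 1 gene fell and 1 rose. Lists of other responses held few calls. In edgeR with all 16 libraries no gene passed among 8 of the chaperonin CCT, 15 of cholesterol synthesis, 13 of the circadian clock, 14 NF-kB targets, 12 of the interferon response, 9 immediate early genes, 13 mitochondrially encoded genes and 6 oligodendrocyte genes, of which 6 of 90 had an unadjusted p under 0.05 and 0 passed in DESeq2. Without the P30 libraries 7 mitochondrially encoded genes rose and 1 fell (8 and 1 with the P7 libraries alone), 4 cholesterol genes rose and 1 fell, 2 clock genes and 1 CCT gene rose, 1 immediate early gene rose and 2 fell, and 1 NF-kB target and 1 oligodendrocyte gene fell. Over all genes the fit without P30 called 2053 higher and 2313 lower of 20350. The fit of the P7 libraries alone called 1971 higher and 2198 lower of 19015. 1 gene each passed among 17 of microglia (Tmem119), 18 p53 targets (Gdf15) and 25 of the spliceosome (Snrpe), and each of these lost its call without at least 3 of the 4 P7 libraries. Of 14 gliosis genes 1 rose and 1 fell, with a median of 0.06 that was -0.02 without CKO replicate 1 (Lcn2, the gene that fell, lost its call without control replicate 1 or CKO replicate 2, adjusted p 0.24 and 0.249). Gfap, the intermediate filament that glia raise under stress, rose from 120.7 and 120.3 CPM to 166 and 161 CPM (0.44 ± 0.07, adjusted p = 0.00102).

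Genes of tissues around the retina also differed between the groups. All 19 lens genes were higher in both libraries labelled CKO than in both controls, as were 28.5% of all genes tested, with a median of 0.45 and sums of 57535 and 59122 CPM against 78549 and 79338 CPM, but 1 passed with all 16 libraries and 16 passed without those of P30. Over all genes the fit without P30 called 2053 of 20350 higher. Pigment epithelium genes rose in 4 of 13 cases (2 with any P7 library left out), with a median of 0.38, and Dct, an enzyme of melanin synthesis, rose from 342 and 345 CPM to 445 and 442 CPM (0.37 ± 0.05, adjusted p = 8.71e-05). The muscle genes Myh3 and Myh8 rose by 0.60 (SE 0.05) and 0.69 (SE 0.08), at adjusted p of 9.82e-08 and 2.27e-05, and keratins and other hair follicle genes rose in 7 of 8 cases, or in 2 to 4 with 1 P7 library left out. All 5 erythroid genes fell, from summed levels of 1933 and 2031 CPM to 663 and 691 CPM, and none passed with any 1 P7 library left out (Alas2, adjusted p from 0.0505 to 0.0917). The part of these tissues in the retinal lists was not tested.

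**Figure D5:**
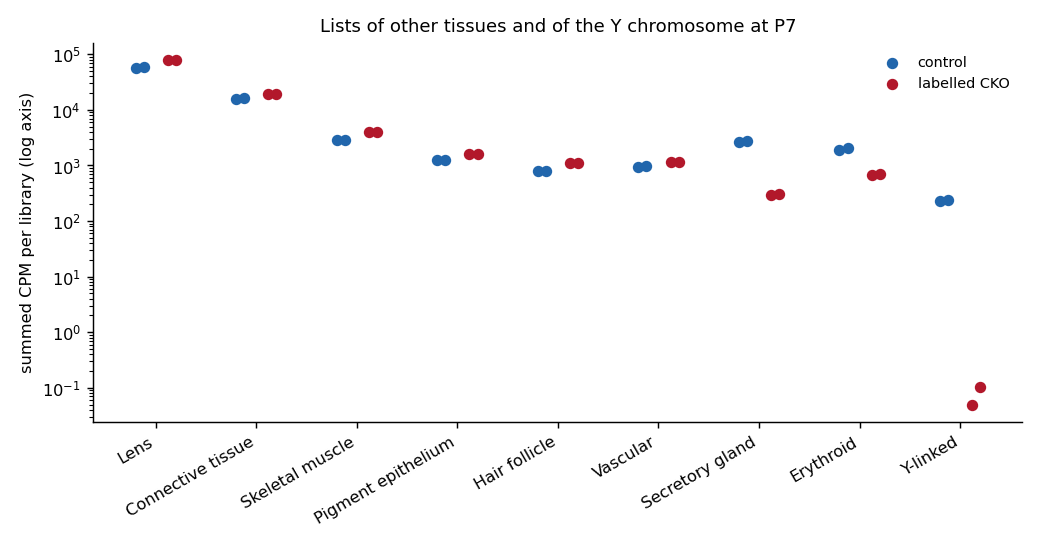
Points are the 4 P7 libraries, with the summed CPM of a list on a log y axis and the list on the x axis. Secretory gland, erythroid and Y-linked genes are lower in the libraries labelled CKO, and the sums of lens, connective tissue, muscle, pigment epithelium, hair follicle and vascular genes are higher.

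Over all genes, listed ones included, 16 met the naming rule as higher and 113 as lower. Abcd4, a lysosomal transporter of vitamin B12, rose from 21.6 and 24.3 CPM to 137 and 139 CPM. Its level also differed among control groups. Their means were 23.0 CPM at P1, 194 at P14 and 29.2 at P30, against 153, 198 and 100 under the label CKO. Zfp949, another of the 12 largest rises, had control means of 22.6 CPM at P7 and 120 at P14, against 88.5 and 136. Xist was low in both groups of P30 (0.63 and 0.62 CPM). The cause of these differences was not tested. Robo3, an axon guidance receptor, rose from 35.8 and 32.5 CPM to 92.5 and 86.4 CPM (1.39 ± 0.09, adjusted p = 7.64e-09). Cck, a neuropeptide gene, rose from 3.94 and 4.21 CPM to 9.51 and 7.88 CPM (1.09 ± 0.15, adjusted p = 8.05e-05), and Myh6, a cardiac myosin, from 2.44 and 2.79 CPM to 6.27 and 5.99 CPM. Hsd11b2, Zkscan3 and Myh13 rose by 1.08, 1.05 and 1.11, and the calls were lost without control replicate 2 for Hsd11b2 (adjusted p = 0.0976) and without any of the 4 libraries for Zkscan3 (0.118 to 0.16) and Myh13 (0.125 to 0.175). The 12 largest falls were 4 Y-linked genes and 8 genes of the Lipo, Mup, Mucl and Scgb families, whose coding members encode lipases and secreted proteins. Among the 8, Lipo5 and Scgb2b33 are annotated as unprocessed pseudogenes. Mucl2, a mucin-like gene, fell from 1667 and 1757 CPM to 107 and 113 CPM (-3.96 ± 0.13, adjusted p = 3.53e-07), and Scgb1b27, a secretoglobin, from 16.5 and 16.6 CPM to 1.09 and 0.84 CPM. Of the 9 Y-linked genes tested 6 passed, all lower. On the X chromosome 62 of 678 genes (9.14%) passed, 35 of them higher, and the autosomes ranged from 5.25% on chromosome 18 to 8.58% on chromosome 6.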

How the data were processed

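RNA of 16 retina libraries, 2 for each of 4 ages and 2 genotype labels, was made into polyA+ libraries and sequenced as paired reads of 150 bp, per the labels. Per the submitters' processing notes, reads were handled with HISAT2, HTSeq and the mm10 build, with versions, annotation release and strand setting not given in the sources used here. Raw counts of reads for each Ensembl gene were deposited and used as they are. Symbols and coordinates come from GENCODE M21 (54409 of 54532 identifiers matched). Counting without strand could mix a gene with its antisense partner, and paralogs such as globins, keratins, Lipo and Scgb genes may share reads.

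Genes were filtered with filterByExpr (21115 kept), scaled by TMM and fitted with edgeR 4.0.16 (R 4.3.3, glmQLFit and glmQLFTest, robust) over the 16 libraries of the series, which share 1 estimate of the spread (8 groups, leaving 8 residual degrees of freedom). Two-sided p-values were adjusted by Benjamini-Hochberg at 0.05. The pipeline was tested on simulated data. Total counts and the limit of 3 counts cover counting error only. The 43 gene lists (572 genes), and the members compared, were chosen with earlier results of these data known. Named were Uxt, list members, the 12 largest rises and falls at P7 (at least 2-fold, at least 5 CPM in the higher group, groups not overlapping, no predicted gene) and the 5 largest differences in each direction between ages. Alternatives were 10 planned settings, among them DESeq2 1.42.0. Some items are not reported here, though the counts and medians of lists include all members tested.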

Additional observations from a re-analysis of the deposited data

Results flagged for a closer look

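The effect of the label differed between P7 and P1 by the interaction test in 1514 genes and between P14 and P7 in 10242 genes. The following genes of retinal and response lists passed at P7 and at P1 with opposite signs and differed between these ages. The log2 difference of the P7 effect from the P1 effect was 2.00 for Hes5, 1.57 for Neurod4, 1.48 for Dll3, 1.19 for Hes6, 1.14 for Notch1, 1.09 for Prdm1, 0.93 for Sox11, 0.79 for Rorb, 0.76 for Dll1 and 0.73 for Mfng. It was -1.32 for Esrrb, -0.95 for Xbp1 and -0.60 for Gpi1.

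The widest differences of P7 from P1 were in genes outside the neural retina. Hair keratins and their associated proteins led upward, with Krt81 at 8.49, Krtap11-1 at 7.26, Krt71 at 7.12, Krtap3-1 at 6.85 and Krt27 at 6.78. Krt81, Krtap11-1 and Krtap3-1 had 0 counts and Krt27 had 3 in the P1 libraries labelled CKO, so these fitted values depend on the prior count. Downward, the difference was -9.35 for Scgb2b2, -7.78 for Mmp13, -7.52 for Capn11, -5.76 for Obp1a and -5.61 for Scgb2a2, and Scgb2b2 had 0 counts and Scgb2a2 had 2 in the P1 controls, where the same holds. From P7 to P14 the largest positive differences were 11.21 for Ddx3y, 8.44 for Lipo4, 7.51 for Lipo5, 7.30 for Scgb2b7 and 7.16 for Scgb2b33, where Ddx3y had 1 count in the P7 libraries labelled CKO and in each group of P14. The largest negative ones were -9.89 for Xist, -4.77 for Arid3c, -4.42 for Crhbp, -4.02 for Tmem121b and -3.94 for Tmem72. Differences in sex between groups hold at P1 and P7 and not at P14, where both groups are high in Xist.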

How the results depend on the processing

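The count of genes called at P7 moved by more than 1.5 times in 4 kinds of setting. A fit of the 4 P7 libraries alone called 4169 genes (1971 higher and 2198 lower), and a fit without the P30 libraries called 4366 (2053 and 2313). With the scaling on amacrine, horizontal and ganglion cell genes 704 passed, of which 267 were lower, and leaving out 1 P7 library left 716 to 743, with 200 to 225 higher and 504 to 533 lower. Genes with at least 2-fold change numbered 178 with a filter of at least 5 CPM in 2 libraries. For the difference of P7 from P1, 415 genes passed with the scaling on inner retinal neuron genes, 4546 without the P30 libraries and 887 to 923 without 1 P7 library, and the P7 libraries alone give no value for it. The other counts, among them those from unscaled library sizes, RLE scaling, keeping low-count genes and DESeq2 (1295 genes called at P7), lay within 1.5 times. A replicate block for the numbers within each age called 1350 genes at P7, of which 1233 were among the 1525. Equal numbers did not pair the libraries, since replicate differences of the 2 groups correlated at 0.04 at P7 over 12216 genes and between -0.06 and -0.01 at the other ages. Of 168 named or listed genes called at P7, 107 kept the call with each P7 library left out and 74 under all settings, and none that was called turned its sign. With 2 libraries a group, no outlier test was possible, and low genes such as Opn1mw rest on few counts. The cause of these movements was not tested.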
